A study of Mus musculus with 6 samples.

Results

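The genes described here are 9 markers of the homeostatic, supportive state of astrocytes, out of 25755 genes measured in mouse optic nerves. They were taken by symbol, and every one of the 9 is in the table. They comprise the glutamate transporters Slc1a2 and Slc1a3, the GABA transporter Slc6a11, the water channel Aqp4, the potassium channel Kcnj10, the enzymes Glul and Aldh1l1, the transcription factor Sox9 and the receptor Fgfr3. The RNA came from optic nerves of 6 mice of the genotype Nf1flox/flox; hGFAP-Cre. Mice 1 to 3 had sham surgery and mice 4 to 6 optic nerve crush (ON-CR). Surgery was at 6 weeks of age and the nerves were analysed at 12 weeks, which the sample labels give as 3 months. Sham mice had the incision without the crush. In this model the human GFAP promoter drives Cre, which removes Nf1 in neuroglial progenitors, so that astrocytes and other glia arising from them lack it in sham and ON-CR mice alike. Mice with intact Nf1 were not part of the comparison. Nf1 RNA averaged 385 ± 55.1 normalized counts (SD, n = 3) in sham nerves and 411 ± 29.3 after ON-CR, with an adjusted p of 0.798 from limma, and since both groups carry the deletion this does not check the labels.

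Astrocytes clear glutamate and GABA from the extracellular space, turn glutamate into glutamine, and take up potassium and water at endfeet that contact blood vessels. The optic nerve holds axons but no neuronal cell bodies or classical synapses, and its astrocytes are the main cells that buffer ions and transmitter released by active axons. After injury astrocytes become reactive, a state in which intermediate filament genes such as Gfap and Vim rise and homeostatic genes may or may not be kept. The comparison asks how the homeostatic genes stand 6 weeks after the crush. The paper reports that ON-CR nerves of this genotype form optic gliomas by the age analysed here. It found higher nerve volume, proliferation, cellularity and GFAP, and more Olig2+ and Blbp+ cells, than in sham nerves. The part of tumour cells in the values below was not tested.

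Values are normalized counts per gene, not corrected for gene length, from libraries of 17414035 to 23620997 estimated reads on genes. Astrocyte RNA was abundant in every library, with Gfap, the intermediate filament gene that defines the cell type, at 99186 to 202957. Mature oligodendrocyte markers had a summed level of 1319920 to 1880130 in sham libraries and 643442 to 766316 after ON-CR, with 10 of 15 called lower and 0 called higher. Mbp, the myelin basic protein gene, alone took 4.21% to 6.14% of the sham libraries and 1.95% to 2.18% of the ON-CR libraries. In these bulk samples, fewer cells of a type and less RNA per cell cannot be told apart. Of 11 microglia markers 3 were called higher and 0 lower, with summed levels of 19877 to 26426 in sham and 26641 to 41592 in ON-CR libraries. The groups also differed in sex-linked RNA: Xist lay between 2.14 and 30.9 in sham and between 2708 and 6357 in ON-CR libraries, and Ddx3y was at 1291 to 1645 in sham mice and at 976, 4.19 and 0 in mice 4, 5 and 6. Both RNAs lay apart between the groups over all 6 libraries, so sex-linked differences and crush cannot be told apart. Mouse 4 held both RNAs at a high level, and whether its library holds RNA of a single animal was not tested. Brain neuron markers were uneven, with a summed level of 11731 in ON-CR mouse 5 and 5959 in sham mouse 1 against 2333 to 3577 in the other 4 libraries, and immunoglobulin genes were high in mouse 6, where the B cell and plasma cell markers summed to 98622 against 393 to 2428 elsewhere. Airway and gland epithelium markers summed to 6789 to 10758 in mice 3, 5 and 6 and to 1464 to 2793 in the others. In mice 1, 2 and 4 most of this sum was Cdh1, at 2376, 1545 and 1280, with Bpifa1 at 22.3, 0 and 0. Bpifa1 was at 7568, 4579 and 5894 in mice 3, 5 and 6. The part of these cells in the values of the members was not tested.

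None of the 9 homeostatic genes passed the test. By limma at an adjusted p of 0.05, 0 of 9 were called higher and 0 of 9 lower after ON-CR, where 0.971% of all genes were called higher and 1.13% lower. A robust limma fit and voom also called 0 in either direction. At an unadjusted p of 0.05, Aqp4 and Slc1a3 were higher (2 of 9, against 7.37% of all genes) and Kcnj10 was lower (1 of 9, against 8.22%). The same 3 genes were those whose sham and ON-CR values did not overlap: 2 higher, where 10.5% of all genes lay apart in that direction, and 1 lower, where 11.0% did. Changes ran from -0.36 to 0.43 on the log2 scale, with a median of 0.13 beside a median of 0.03 over all genes. The median size of change, without sign, was 0.23 for the members and 0.20 for the 2908 genes with a mean at least as high as that of Fgfr3, the lowest member. Of those 2908 genes, 1.82% were called higher and 5.02% lower, and their median log2 change with sign was -0.10.

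**Figure D1:**
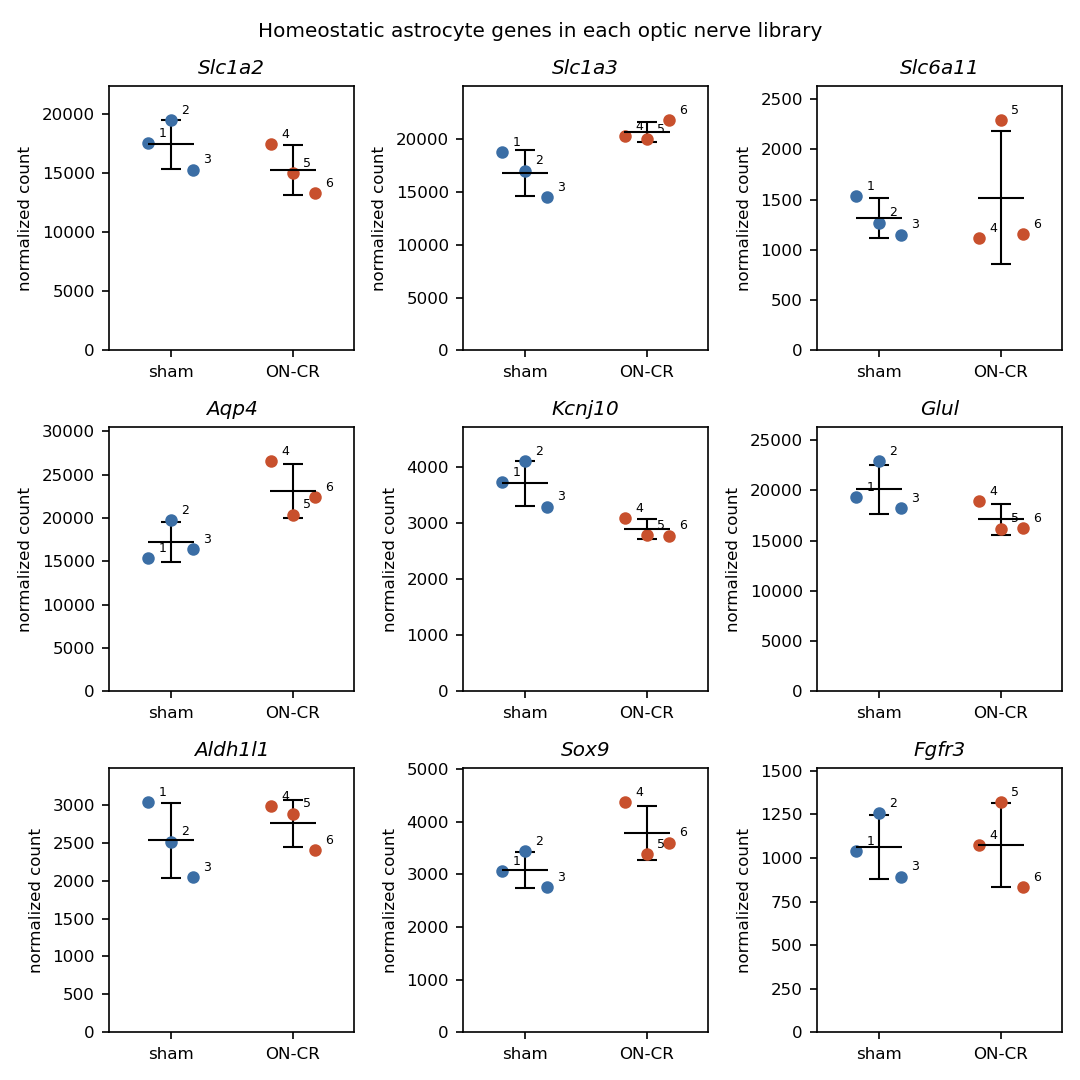
Normalized count (y axis, from 0) of each of the 9 genes in sham (blue, mice 1 to 3) and ON-CR (red, mice 4 to 6) nerves, with each library as a numbered point and the bars giving the mean and 1 SD over 3 mice. Aqp4 and Slc1a3 are higher and Kcnj10 lower in all 3 ON-CR nerves than in any sham nerve, and a single library, mouse 5, stands above the rest in Slc6a11.

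The glutamate transporters Slc1a2 (GLT-1) and Slc1a3 (GLAST) remove glutamate from the extracellular space together with sodium. Slc1a3 lies on chromosome 15 (GRCm38, chr15:8634124-8710764, minus strand) and its exons overlap no other annotated gene. Its values were 18770, 16991 and 14465 normalized counts for sham mice 1, 2 and 3 and 20239, 19964 and 21726 for ON-CR mice 4, 5 and 6. Every ON-CR nerve was above every sham nerve, and the means were 16742 ± 2164 and 20643 ± 948. The fold change was 1.24 (95% interval 1.02 to 1.504, log2 change 0.31 ± 0.13 SE) with an adjusted p of 0.269, so the gene was not called.

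Slc1a2 (chr2:102658659-102790784, plus strand) overlaps 166 exonic bases of Gm13872 on the other strand, and reads of both genes cannot be separated in a library that does not mark strand. Its values were 17546, 19431 and 15287 for sham mice 1, 2 and 3 and 17451, 14981 and 13303 for ON-CR mice 4, 5 and 6. The groups overlapped, with ON-CR mouse 4 close to sham mouse 1, and the fold change of 0.874 (0.706 to 1.08) had an adjusted p of 0.551. In sham nerves both transporters were at nearly the same normalized count within each library, with a log2 ratio of Slc1a2 to Slc1a3 of -0.10, 0.19 and 0.08. After ON-CR the ratio was -0.21, -0.41 and -0.71 in mice 4, 5 and 6, below all sham values. The difference of -0.50 in log2 is a ratio lower by a factor of 0.705. An exact two-sided permutation test gave p = 0.1, the smallest that 3 against 3 libraries allow. The same ratios run over genes of unlike length, so only their difference between groups, not their size, compares the genes.

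The 250 bases upstream of the RefSeq start are shown for the 2 members that have an entry and whose groups did not overlap, Slc1a3 in the upward and Kcnj10 in the downward direction (RefSeq sequences, GRCm38.p6). Both are written 5′ to 3′ on the strand of the gene, Slc1a3 at chr15:8710808-8711057 (minus) and Kcnj10 at chr1:172340960-172341209 (plus), and capitals mark the match to the STAT motif, starting at base 155.
Slc1a3: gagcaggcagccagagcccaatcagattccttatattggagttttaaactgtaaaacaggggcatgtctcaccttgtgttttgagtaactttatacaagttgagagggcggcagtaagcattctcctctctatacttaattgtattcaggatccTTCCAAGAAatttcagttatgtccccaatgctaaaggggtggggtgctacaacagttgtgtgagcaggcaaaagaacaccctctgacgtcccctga
Kcnj10: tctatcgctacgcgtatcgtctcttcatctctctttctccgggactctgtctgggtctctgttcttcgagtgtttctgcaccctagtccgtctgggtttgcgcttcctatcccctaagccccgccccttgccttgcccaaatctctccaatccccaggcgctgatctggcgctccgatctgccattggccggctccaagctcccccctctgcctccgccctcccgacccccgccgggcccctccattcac
Of the members, 7 of 9 had an entry, Aqp4 and Sox9 being the others. The STAT motif TTCNNNGAA reads the same on both strands and occurred upstream of 1 of these 7 genes, Slc1a3, and in 7.02% of 32851 promoters of the same length. Searched on both strands, the nuclear factor I half-site TTGGCA was upstream of 0 of 7 (12.3% of all promoters) and the SOX motif ACAATG of 0 of 7 (10.7%). Among the genes of the reactive astrocyte list that were called higher, 9 had an entry, and the STAT motif was found for 1 of them (Tgm1), the half-site for 2 (Lcn2 and Osmr) and the SOX motif for 0. For members and reactive genes, a match in any promoter entry of the gene counted, whereas the percentages are shares of single entries. A match is a run of letters and not a measured binding site.

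Beside the transporters stand 17 other genes of glutamate and glutamine handling, of which 0 were called higher and 1 lower, with a median log2 change of 0.05. The called gene was Grm3, a metabotropic glutamate receptor of astrocytes and neurons, which fell from 1134, 1211 and 956 for sham mice 1, 2 and 3 to 769, 693 and 627 for ON-CR mice 4, 5 and 6 (log2 change -0.66 ± 0.14 SE, adjusted p = 0.0393). This call was lost in 6 of the 17 alternative settings, among them those without sham mouse 1, 2 or 3 or without ON-CR mouse 6, with adjusted p-values of up to 0.210 (without sham mouse 2). Slc38a1 and Slc38a2, glutamine transporters and the most abundant of the other genes, had log2 changes of 0.16 (adjusted p = 0.544) and -0.30 (adjusted p = 0.265).

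Aqp4 and Kcnj10 are concentrated at astrocyte endfeet, Aqp4 as the main water channel of the brain and Kcnj10 (Kir4.1) as the inward rectifier that takes up potassium. Aqp4 (chromosome 18, start 15389496, end 15410982, minus strand) was at 15386, 19796 and 16427 normalized counts for sham mice 1, 2 and 3 and at 26518, 20384 and 22447 for ON-CR mice 4, 5 and 6. It was the member with the largest positive estimate in the reported fit, and its groups did not overlap, although sham mouse 2 and ON-CR mouse 5 were only a little apart. The means were 17203 ± 2305 and 23116 ± 3121, a fold change of 1.34 (1.08 to 1.67, log2 change 0.43 ± 0.14 SE) with an adjusted p of 0.175. Over the alternative settings its log2 change ran from 0.32 to 0.55, with adjusted p-values from 0.0548 to 0.400.

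Kcnj10 (chr1:172341210-172374085, plus strand) went the other way. Its values were 3734, 4107 and 3303 for sham mice 1, 2 and 3 and 3101, 2798 and 2782 for ON-CR mice 4, 5 and 6. All ON-CR nerves lay below all sham nerves, the means were 3715 ± 402 and 2894 ± 179.8, and the fold change was 0.781 (0.653 to 0.934, log2 change -0.36 ± 0.12 SE) with an adjusted p of 0.166. The log2 ratio of Aqp4 to Kcnj10, which no scaling between libraries can alter, was 2.04, 2.27 and 2.31 for sham mice 1, 2 and 3 and 3.10, 2.86 and 3.01 for ON-CR mice 4, 5 and 6. The ratio was higher by 0.78 in log2 after ON-CR, a factor of 1.72. Its groups had to lie apart, since Aqp4 was higher and Kcnj10 lower without overlap, so the ratio restates both and was given no test. In the same libraries all 15 mature oligodendrocyte markers had estimates below 0 and 10 were called lower. The part of those cells in the Kcnj10 values and in this ratio was not tested.

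**Figure D2:**
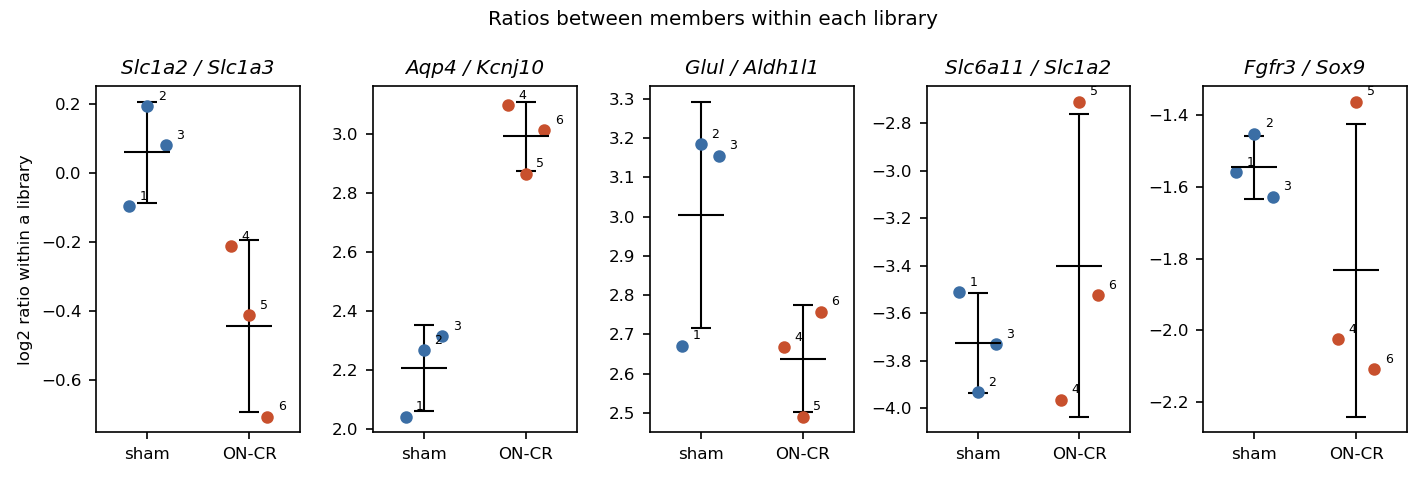
Log2 ratio of 2 members within each library (y axis, its range set per panel) for 5 pairs, by group, with numbered mice as points and bars giving the mean and 1 SD over 3 mice. Aqp4 over Kcnj10 is higher and Slc1a2 over Slc1a3 lower in all 3 ON-CR nerves, while the other 3 pairs overlap between groups.

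Of 19 other genes of potassium, water and endfoot function, 0 were called in either direction by limma, robust limma or voom, and at an unadjusted p of 0.05 limma found 1 higher and 1 lower. Their median log2 change was -0.17, with 16 of 19 estimates below 0. Among the abundant genes of the list was Atp1b2, a sodium pump subunit, with 49324 ± 5338 in sham and 45431 ± 2242 after ON-CR (adjusted p = 0.736). Its values overlapped between the groups.

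Glul, glutamine synthetase, converts glutamate and ammonia to glutamine. It lies on chr1:153899944-153909723 (plus strand), and 160 of its exonic bases overlap Teddm2 on the other strand or Mir8114 on the same strand. Its values were 19289.8, 22863 and 18207 for sham mice 1, 2 and 3 and 18907, 16190 and 16252 for ON-CR mice 4, 5 and 6. ON-CR mouse 4 lay within the sham range and the other ON-CR nerves below it. The fold change was 0.852 (0.700 to 1.04) with an adjusted p of 0.427. The part of oligodendrocytes, whose mature markers were lower after ON-CR, in the Glul values was not tested.

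Aldh1l1, a folate enzyme widely used to label astrocytes, lies on chr6:90486427-90600203 (plus strand) and overlaps 438 exonic bases of Gm15756 on the other strand. It was at 3028, 2513 and 2043 for sham mice 1, 2 and 3 and at 2977, 2880.3 and 2402 for ON-CR mice 4, 5 and 6. The highest value was in a sham nerve and the lowest in another, and the fold change was 1.10 (0.867 to 1.39, adjusted p = 0.731). Without sham mouse 3, the lowest, the log2 change was -0.01 in place of 0.14. The log2 ratio of Glul to Aldh1l1 was 2.67, 3.19 and 3.16 in sham mice and 2.67, 2.49 and 2.76 in ON-CR mice, which overlapped because sham mouse 1 was as low as ON-CR mouse 4 (difference -0.37, exact permutation p = 0.2).

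Among 14 other genes of folate and aldehyde metabolism 0 were called by limma or robust limma, with 2 higher and 3 lower at an unadjusted p of 0.05, and voom called 1, Aldh1l2, a mitochondrial relative of Aldh1l1 (257 ± 16.2 in sham and 414 ± 72.6 after ON-CR, adjusted p = 0.0769 in limma). Aldh1l2 was named after its values were seen. The most abundant were the aldehyde dehydrogenases Aldh1a1, with a log2 change of -0.44 (adjusted p = 0.201), and Aldh2, with -0.21 (adjusted p = 0.352). The list had a median log2 change of -0.03.

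Slc6a11 (GAT-3) carries GABA into astrocytes. It lies on chr6:114131241-114249952 (plus strand). Its values were 1539, 1272 and 1151 for sham mice 1, 2 and 3 and 1118, 2287 and 1155 for ON-CR mice 4, 5 and 6. ON-CR mouse 5 was the highest of all and mouse 4 the lowest, so the ON-CR values spread around the sham range. The means were 1321 ± 198 and 1519.95 ± 665, and the fold change was 1.09 (0.747 to 1.601, adjusted p = 0.853). Mouse 5 decides the direction: without it the log2 change was -0.21 in place of 0.13.

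Neuron RNA was uneven in the same way at the upper end. ON-CR mouse 5 and sham mouse 1, highest in Slc6a11, were also highest in the summed level of 12 brain neuron markers, among which Snap25 and Syt1 encode synaptic proteins. The hypothalamic neuropeptide genes, 12 in all, summed to 6628 in ON-CR mouse 5, 5168 in sham mouse 3, 2489 in sham mouse 1, and 580 to 1693 in the other 3 libraries. Of the neuron and hypothalamus markers, 0 were called by limma, robust limma or voom, and 0 had an unadjusted p under 0.05. The part of this RNA in the Slc6a11 values was not tested. Without mice 1 and 5, a setting chosen after the data were seen, Slc6a11 had a log2 change of -0.09 and an adjusted p of 0.804.

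**Figure D3:**
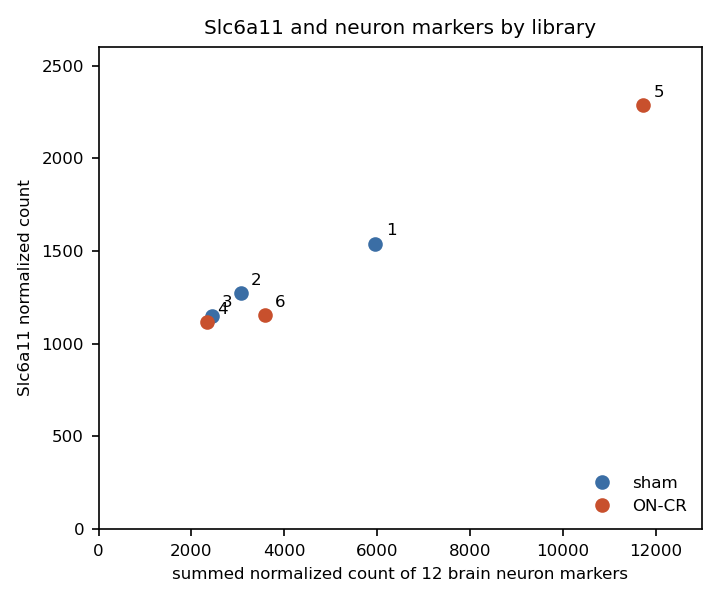
Normalized count of Slc6a11 (y axis, from 0) against the summed normalized count of 12 brain neuron markers (x axis, from 0) in each library, with numbered points for sham (blue) and ON-CR (red) mice. Mouse 5 lies apart at 11731 and 2287 and mouse 1 comes next, while the other 4 libraries lie together.

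The other 10 genes of GABA handling had a median log2 change of -0.44, with 8 of 10 estimates below 0, and 0 were called in either direction by limma, robust limma or voom. At an unadjusted p of 0.05 limma found 3 lower and 0 higher. The most abundant were Slc6a13, a GABA and taurine carrier of the meninges and vessels, with 7762 ± 684 in sham and 5206 ± 1492 after ON-CR (adjusted p = 0.147), and Abat, the enzyme that degrades GABA, with 5154 ± 1039 and 3914 ± 1092 (adjusted p = 0.361). Slc6a13 values stood beside those of 9 meningeal and perineural fibroblast markers, whose summed level was 25783 to 30942 in sham and 16872 to 26621 in ON-CR libraries, with 1 of 9 called lower and 0 higher. The part of these cells in Slc6a13 was not tested.

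Sox9 is a transcription factor that keeps astrocyte identity and is found in nearly all astrocytes. It lies on chr11:112782224-112787760 (plus strand). Its values were 3069.9, 3441 and 2760.2 for sham mice 1, 2 and 3 and 4367, 3391 and 3606 for ON-CR mice 4, 5 and 6. ON-CR mouse 5 fell just below sham mouse 2 and the other ON-CR nerves were above all sham nerves. The fold change was 1.22 (0.999 to 1.498, log2 change 0.29 ± 0.13 SE), with an unadjusted p of 0.0505 and an adjusted p of 0.322.

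Of 18 other astrocyte transcription factors 1 was called higher and 1 lower, and the median log2 change was -0.02. Atf3, a stress-induced factor that is not specific to astrocytes, rose from 35.02, 46.0 and 47.0 for sham mice 1, 2 and 3 to 183, 129.99 and 292 for ON-CR mice 4, 5 and 6 (log2 change 2.15 ± 0.31 SE, adjusted p = 0.00733). Hes5, a target of Notch signalling in progenitors and astrocytes, fell from 71.1, 254 and 119.9 to 29.9, 28.3 and 19.7 (log2 change -2.30 ± 0.43 SE, adjusted p = 0.0256). Without ON-CR mouse 6 neither was called, at an adjusted p of 0.0645 for Atf3 and 0.180 for Hes5, and Hes5 was also not called without sham mouse 2 (0.117) or sham mouse 3 (0.0947), or by voom (0.0642). Zbtb20 and Nfia, the most abundant of the list, had log2 changes of 0.21 (adjusted p = 0.503) and -0.04 (adjusted p = 0.926).

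Fgfr3, a receptor for fibroblast growth factors found on astrocytes, had the smallest change of the members. It lies on chr5:33721674-33737068 (plus strand), and 437 of its exonic bases overlap G630022F23Rik on the other strand. It was at 1042, 1258 and 893 normalized counts for sham mice 1, 2 and 3 and at 1073, 1319 and 835 for ON-CR mice 4, 5 and 6. Each group spanned nearly the same range, with means of 1064 ± 184 and 1075 ± 242. The fold change was 1.00 with an interval from 0.757 to 1.33, which is the range of changes compatible with these 3 mice per group. The smallest change that could be detected was not computed. The log2 ratio of Fgfr3 to Sox9 was -1.56, -1.45 and -1.63 in sham mice and -2.02, -1.36 and -2.11 in ON-CR mice (exact permutation p = 0.4), with ON-CR mouse 5 above all sham nerves and the other ON-CR nerves below them.

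The other 20 genes of the FGF pathway had a median log2 change of 0.04, with 0 called higher and 1 lower. Robust limma also called the ligand Fgf2 higher, at 189 ± 60.1 in sham and 344 ± 30.3 after ON-CR (log2 change 0.90, adjusted p = 0.0681 in the reported fit). The gene called lower was the ligand Fgf1, at 4476, 4291 and 3556 for sham mice 1, 2 and 3 and at 2536, 2361 and 2005 for ON-CR mice 4, 5 and 6. It fell in every ON-CR nerve to below the sham range (log2 change -0.84 ± 0.13 SE, adjusted p = 0.0118), and was not called without sham mouse 1 (0.0641), sham mouse 2 (0.0899) or ON-CR mouse 6 (0.0972). In the same libraries all 15 mature oligodendrocyte markers had estimates below 0 and 10 were called lower, and their part in the Fgf1 values was not tested. Spry2, a feedback inhibitor of the pathway, had a log2 change of -0.25 (adjusted p = 0.532) and the receptor Fgfr1 one of -0.01 (adjusted p = 0.971).

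**Figure D4:**
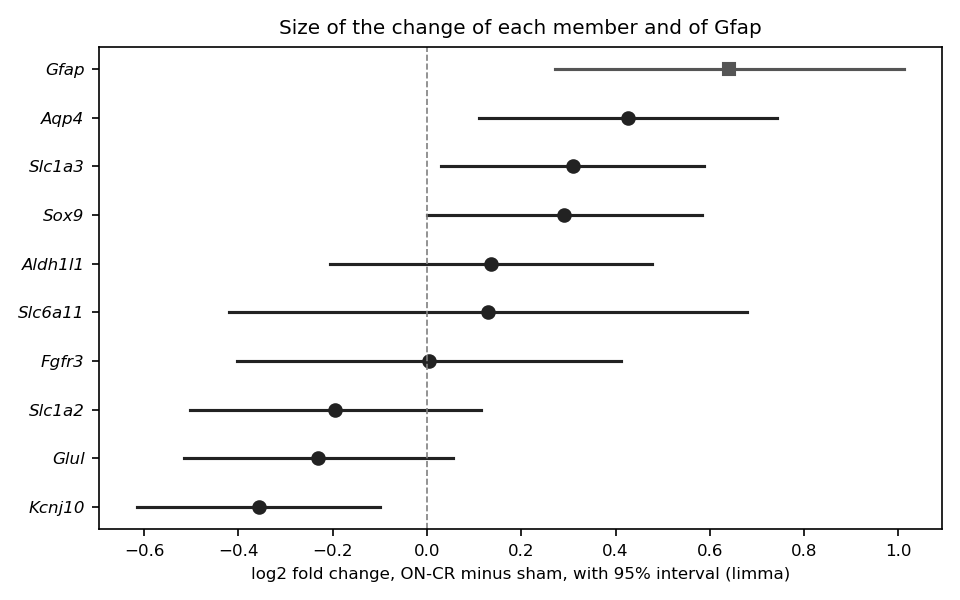
Log2 fold change of each member and of Gfap, ON-CR minus sham (x axis), from the limma fit over 3 against 3 libraries, with points for the estimate and lines for its 95% interval. The intervals of Aqp4, Slc1a3 and Gfap lie above 0 and that of Kcnj10 below it, before adjustment over all genes.

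The members were set beside genes that rise in reactive astrocytes, a list known from the field. Gfap was at 123408, 121993 and 99186 for sham mice 1, 2 and 3 and at 156465, 178302 and 202957 for ON-CR mice 4, 5 and 6, a fold change of 1.56 (1.21 to 2.02) without overlap. Its adjusted p was 0.0859 in the reported fit, and it was called under scaling to library size only (0.0151), by robust limma (0.0202) and by voom (0.0231). Of the 29 genes on the list, 10 were called higher and 1 lower, with a median log2 change of 0.85. The 10 were Lcn2, a secreted iron-binding protein, the adhesion receptor Cd44, the filament gene Vim, and S1pr3, Tgm1, Timp1, Osmr, Cd14, Serpina3n and Cxcl10. Robust limma also called 10 higher, with Gfap and Nes in place of Serpina3n and Cxcl10, and voom called 14. Lcn2 rose from 60.5, 38.1 and 50.7 in sham mice to 611, 647 and 480 in ON-CR mice, and Vim from 11022, 12288 and 10832 to 27519, 22419.5 and 32768. Hspb1, a small heat shock protein gene, was the one that fell (log2 change -1.73, adjusted p = 0.00814). H2-D1, the most abundant after Gfap among those not called, had a log2 change of 0.77 (adjusted p = 0.297). Cd14, Cxcl10 and H2-D1 are also expressed by microglia. Of the 11 microglia markers 3 were called higher, C1qa, C1qb and Aif1, while P2ry12 and Tmem119, which mark resting microglia, had log2 changes of -0.35 (adjusted p = 0.364) and -0.27 (adjusted p = 0.351), and the part of these cells was not tested. Leaving out ON-CR mouse 5 gave 16 called higher in place of 10, and the 1 lower call was lost without sham mouse 2, sham mouse 3 or ON-CR mouse 6.

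Relative to Gfap within each library, all 9 homeostatic genes had a lower mean after ON-CR, as did 85.7% of all other genes, since Gfap had a larger positive change than any member. The difference in log2 ratio was -0.997 for Kcnj10, -0.87 for Glul, -0.84 for Slc1a2, -0.64 for Fgfr3, -0.51 for Slc6a11, -0.51 for Aldh1l1, -0.35 for Sox9, -0.33 for Slc1a3 and -0.22 for Aqp4. For Kcnj10 the ratio was -5.05, -4.89 and -4.91 for sham mice 1, 2 and 3 and -5.66, -5.99 and -6.19 for ON-CR mice 4, 5 and 6. The groups overlapped for Slc6a11 (exact permutation p = 0.4), Sox9 (p = 0.3) and Aqp4 (p = 0.4). They did not overlap for Glul, Slc1a2, Fgfr3, Aldh1l1 and Slc1a3, each with the smallest exact permutation p of 0.1, nor for Kcnj10. For Kcnj10 they had to lie apart, since Gfap was higher and Kcnj10 lower without overlap. That ratio restates both genes, so no p-value is given for it. With Kcnj10 included, the 6 of 9 without overlap stand beside 44.4% of all genes other than Gfap. Among the 2907 as abundant as the members it was 82.8%, so the ratios to Gfap set the members apart from neither. Each ratio carries the same Gfap values.

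Of 26 other genes enriched in astrocytes, 1 was called higher and 2 lower, with a median log2 change of -0.22 and 17 of 26 estimates below 0. In this list voom called 1 higher and 5 lower, the added genes being Aldoc, Cldn10 and Ttyh1. Slc14a1, a urea transporter, rose from 1278, 1062 and 884 for sham mice 1, 2 and 3 to 1739, 1610.2 and 2112 for ON-CR mice 4, 5 and 6 (log2 change 0.77 ± 0.16 SE, adjusted p = 0.0388). S100b, a calcium-binding protein gene also expressed by oligodendrocyte lineage cells, fell from 18581, 17008 and 14222 to 9335, 9516 and 10714 (log2 change -0.75 ± 0.13 SE, adjusted p = 0.0185). Scara3, a member of the scavenger receptor family, fell from 1201, 1325 and 1289 to 985, 775 and 727 (log2 change -0.63 ± 0.14 SE, adjusted p = 0.0480), but was not called in 10 of 17 alternative settings. Without ON-CR mouse 6 none of these 3 was called. S100b was also not called without sham mouse 1, sham mouse 2 or ON-CR mouse 4, nor Slc14a1 without sham mouse 2, sham mouse 3 or ON-CR mouse 4. The abundant lipoprotein genes Apoe and Clu had log2 changes of -0.23 (adjusted p = 0.587) and 0.11 (adjusted p = 0.800). Over all 7 lists of related genes together, which hold 124 genes, 2 were called higher and 5 lower, with a median log2 change of -0.11. By voom 3 were called higher and 7 lower. With limma these counts ran from 0 higher and 0 lower without ON-CR mouse 6 to 4 higher and 10 lower without ON-CR mouse 5.

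**Figure D5:**
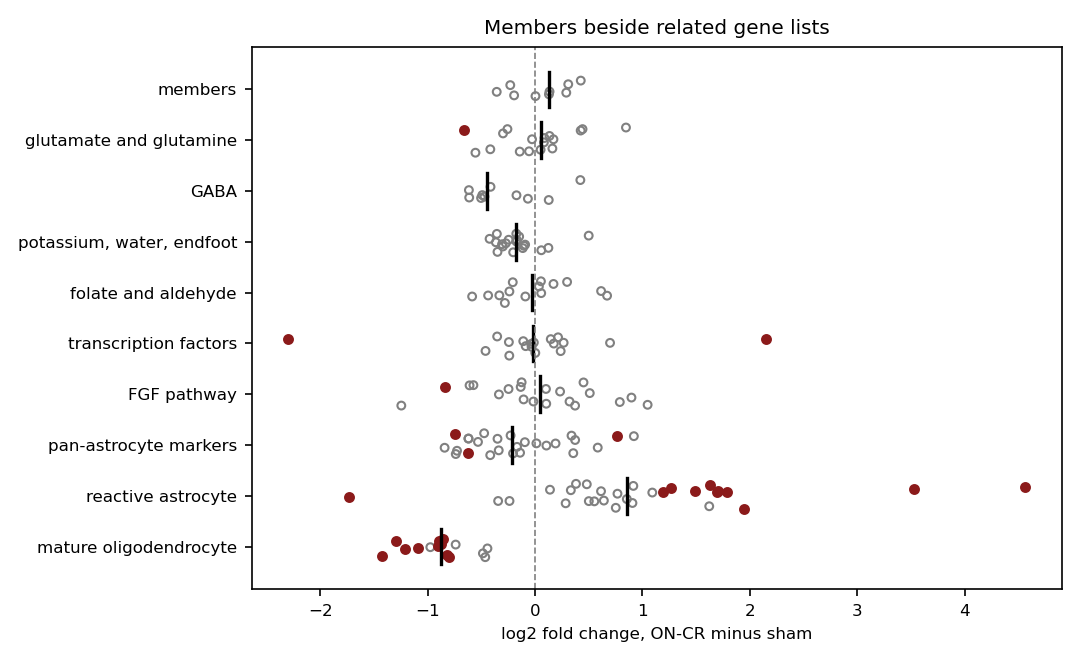
Log2 fold change, ON-CR minus sham (x axis), of every gene in the members and 9 gene lists, with filled red points for genes at an adjusted p at or under 0.05, open points for the rest, and a bar at each list's median. The members lie between -0.36 and 0.43 with none filled, the reactive astrocyte list has a median of 0.85 and the mature oligodendrocyte list one of -0.87.

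Levels of different genes were compared per kilobase of merged exon. In sham nerves Glul was highest with 7206 ± 873 normalized counts per kilobase, followed by Slc1a3 with 3802 ± 491, Aqp4 with 2913 ± 390.4 and Slc1a2 with 1441 ± 172. Below these came Sox9 with 747 ± 82.4, Kcnj10 with 687 ± 74.4, Aldh1l1 with 605 ± 118, Slc6a11 with 319.6 ± 48.0 and Fgfr3 with 242 ± 41.7. The ranges overlapped between Slc1a3 and Aqp4, between Sox9 and Kcnj10, between Kcnj10 and Aldh1l1, and between Slc6a11 and Fgfr3. Within each library, Slc1a3 was above Aqp4, Sox9 above Kcnj10 and Slc6a11 above Fgfr3 in 3 of 3 sham libraries, and Kcnj10 was above Aldh1l1 in 2 of 3. After ON-CR the order per kilobase was the same except that Aldh1l1, at 659 ± 73.7, stood above Kcnj10, at 535 ± 33.2. Their ON-CR ranges were 575 to 713 and 514 to 574, which nearly touched. Among ON-CR libraries the neighbours whose ranges overlapped were Kcnj10 and Slc6a11, in this order in 2 of 3 libraries, and Slc6a11 and Fgfr3, in this order in 3 of 3. Glul was at 6130.5 ± 555, Slc1a3 at 4687 ± 215, Aqp4 at 3915 ± 529, Slc1a2 at 1261 ± 173, Sox9 at 916 ± 124, Slc6a11 at 368 ± 161 and Fgfr3 at 244 ± 55.0 per kilobase.

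Counting error was small beside the differences between mice. The lowest member value rested on 804 estimated reads, a counting error of 3.53%, and for the 9 genes the coefficient of variation between mice of a group was 4.59% to 43.7%. Together the 9 genes took 0.386% to 0.438% of the sham libraries and 0.447% to 0.506% of the ON-CR libraries. These shares did not overlap between groups, whereas the summed normalized counts of the same genes did, at 74537 to 91672 in sham and 84194 to 95749 after ON-CR. The share is taken of the total normalized count, which was 19329168 to 21109542 in sham and 18255714 to 18922962 in ON-CR libraries. Mbp took less of that total after ON-CR. Under scaling to library size only, the median log2 change over all genes was 0.15, against 0.03 in the reported fit. How far the total, or Mbp within it, sets these shares was not tested.

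The genes whose profile over the 6 libraries was most like the mean of the members were sought among 14427 genes with a mean value of at least 50. Highest were Fam174c (Pearson r = 0.989), Bhlhe41 (r = 0.980), Rab5if (r = 0.979), Setd1a (r = 0.975) and Wfs1 (r = 0.961), a description over 6 libraries, in which all genes of a library share its depth and scaling factor. Of these Bhlhe41, a transcription factor, was the most abundant, at 6845, 7349 and 5938 for sham mice 1, 2 and 3 and 7279, 7435 and 6580.0 for ON-CR mice 4, 5 and 6. Bhlhe41 was lowest in mice 3 and 6 within their groups, as was the members' median log2 value relative to the sham mean. The members' summed normalized counts were instead slightly lower in ON-CR mouse 5 (84194) than in mouse 6 (84508).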

How the data were processed

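Bulk RNA sequencing of optic nerves from 3 sham and 3 ON-CR mice was used, grouped by the sample labels, and all 6 libraries entered every comparison. The libraries were made with a SMARTer Ultra Low kit, which does not mark strand. The authors mapped and counted reads with DRAGEN on mm10 with Ensembl models, then median-normalized the counts in Partek Flow 10.0. Each deposited value is thus a signal (a read count estimate over 1 scaling factor for its library), and the study tested counts with DESeq2. Because raw counts were not used here, no count model was run. The test was two-sided limma (version 3.58.1, R 4.3.3) on log2(value + 1), fitted with a trend of variance on mean. P-values were adjusted over 25755 genes by the Benjamini-Hochberg method, and a gene was called at an adjusted p of 0.05. Every adjusted p in the text is from limma. Fold changes refer to the same scale. Intervals are at 95%.

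To estimate depth, each library was divided by its most frequent low step, after which 66.2% to 68.4% of values were whole within 0.02 reads. Counting errors from these reads cover counting only. Nothing in the labels says whether the mice came from separate litters. A limma p-value sets the difference between groups against the spread between libraries within groups, moderated by the trend over all genes. Ratios between 2 genes were taken within a library and compared with an exact permutation test. Gene positions, exon lengths and overlaps are from GENCODE M21 on GRCm38, the assembly called mm10, whose models may differ from those the authors counted.

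The members and gene lists were chosen with earlier results of these data known. Named were all members, in the related lists the called genes and up to 2 further genes of highest mean, Gfap, Nf1, Xist, Ddx3y, summed levels and defining markers of other cell types, and the 5 genes most like the members' mean. Alternatives were pseudocounts of 0.1, 0.5 and 2, upper-quartile, library-size and TMM scaling, 2 filters on low values, robust limma, voom with sample quality weights, and leaving out each library. Leaving out mice 1 and 5 together was added after seeing the data. Libraries from mice given a traumatic brain injury were not analysed here, and 1 gene that the rule names is not reported here.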

Additional observations from a re-analysis of the deposited data

How the results depend on the processing

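No member was called in any of the 17 alternative settings. Aqp4, Slc1a3 and Sox9 kept a positive and Kcnj10, Slc1a2 and Glul a negative log2 change in all of them. The members at an unadjusted p of 0.05 numbered 1 to 4, with 1 when ON-CR mouse 4 was left out. The lowest adjusted p was 0.0521 for Slc1a3, 0.0548 for Aqp4, 0.102 for Sox9 and 0.118 for Kcnj10. Scaling to library size only moved the median log2 change over all genes from 0.03 to 0.15, and 4 related homeostatic genes were then called higher and 3 lower, in place of 2 and 5. Leaving out single libraries moved the median log2 change of the members between -0.16 and 0.25, the related genes called higher between 0 and 4 and lower between 0 and 10, and the reactive astrocyte genes called higher between 7 and 16 and lower between 0 and 1. Without the 2 libraries highest in neuron markers, chosen after seeing the data, the members' median was -0.0913, 2 related genes were called lower, Slc6a11 was at -0.0913 and Fgfr3 at -0.16. Fgfr3, near 0 in the reported fit, was at -0.0773 in voom and between -0.16 and 0.17 when libraries were left out. Leaving out single libraries also gave Aldh1l1 log2 changes from -0.00905 (without sham mouse 3) to 0.27 and Slc6a11 from -0.21 to 0.31, and the ratio of Slc6a11 to Slc1a2, 0.32 in log2, from -0.02 to 0.61. The cause of these shifts was not tested. No paired analysis was possible because sham and ON-CR mice carry different numbers.

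Depth gave the members a counting error of at most 3.53%.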
